A study of Mus musculus with 41 samples.

Results

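Cdx1, Cdx2, Cdx4, Sp5, Sp8, Evx1, Nkx1-2, Fgf8, Fgf17 and Gbx2 are genes known from the tail bud of the mouse embryo and from the neural tissue that grows out of it. They were taken by symbol from a table of 24410 genes, and 9 of the 10 had enough counts to be tested among 15204 genes. Cdx4 was the exception. Mouse embryonic stem cells of the line R1-iCas9, which makes the nuclease Cas9 in response to doxycycline (1 µg/ml), were transfected either with a non-targeting guide (NT) or with a pool of 5 guide RNAs to 1 gene, which was Brd8, Eed, Ezh2 or Nr6a1. They were then differentiated towards spinal neural progenitors, and 41 libraries of RNA depleted of ribosomal RNA were made at days 7, 9 and 11.

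All groups shared the differentiation: bFGF at 10 ng/ml, then from day 2 the GSK3β inhibitor CHIR99021 at 5 µM, which switches on Wnt signalling, then from day 3 retinoic acid at 100 nM with the Smoothened agonist SAG at 10 nM, and SAG alone from day 5. NT cells carried the same induced Cas9 and are the controls throughout. Eed and Ezh2 encode subunits of Polycomb repressive complex 2 (PRC2), which methylates histone H3 at lysine 27. Brd8 encodes a bromodomain subunit of a histone acetyltransferase complex, NuA4/TIP60. Nr6a1 is a nuclear receptor gene known from trunk development. The genotype labels call the targeted groups knockouts, but the guides were pooled and delivered to a population, and the share of edited cells is not given in the sources used here. Of the 15 groups of genotype and day, 11 had 3 libraries and 4 had 2 (Nr6a1 at each day, and Brd8 at day 9).

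In the embryo, neuromesodermal progenitors of the tail bud make spinal cord and somites, and are kept going by Wnt and FGF signalling. Sp5 and Sp8 encode zinc-finger factors that act with Wnt signalling, Fgf8 and Fgf17 are ligands, Cdx factors link these signals to the Hox genes, and Nkx1-2 and Evx1 are homeobox genes of the posterior epiblast. Retinoic acid ends this programme, and several of the genes are used again later: Evx1 marks V0 interneurons of the spinal cord, Sp8 is expressed in parts of the brain and the limb, and Gbx2 shapes the anterior hindbrain.

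Promoters are shown for the 3 genes that were called against NT in at least 1 comparison. The sequences are RefSeq's for GRCm38.p6, from 250 bases before a start site to 50 bases after it, 5′ to 3′ on the + strand, which is the strand of all 3 genes. Capitals mark CTTTGA, the core of the TCF/LEF motif, in the Sp5 and Sp8 sequences, and TTTATT or TTTATG, letters that Cdx factors are known to bind, in the Evx1 sequence. Both strands were searched, so TCAAAG is CTTTGA read on the other strand and AATAAA is TTTATT; in Evx1 a pair of TTTATT matches overlap. The Sp5 promoter lies at chr2:70474673-70474972, the Evx1 promoter at chr6:52313248-52313547 and the Sp8 promoter, at 1 of its 3 RefSeq starts, at chr12:118846983-118847282.
Sp5: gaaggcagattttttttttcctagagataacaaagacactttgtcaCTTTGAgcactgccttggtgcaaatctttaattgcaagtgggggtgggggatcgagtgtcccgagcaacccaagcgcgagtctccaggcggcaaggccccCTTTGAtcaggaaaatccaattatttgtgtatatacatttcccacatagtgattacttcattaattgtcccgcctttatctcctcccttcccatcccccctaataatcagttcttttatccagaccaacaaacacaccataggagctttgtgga
Evx1: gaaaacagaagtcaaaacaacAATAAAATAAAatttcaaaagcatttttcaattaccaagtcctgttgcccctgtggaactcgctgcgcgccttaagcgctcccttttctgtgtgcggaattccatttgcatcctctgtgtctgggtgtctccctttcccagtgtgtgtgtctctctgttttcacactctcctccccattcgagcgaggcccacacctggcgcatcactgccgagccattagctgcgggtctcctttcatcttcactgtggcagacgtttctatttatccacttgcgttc
Sp8: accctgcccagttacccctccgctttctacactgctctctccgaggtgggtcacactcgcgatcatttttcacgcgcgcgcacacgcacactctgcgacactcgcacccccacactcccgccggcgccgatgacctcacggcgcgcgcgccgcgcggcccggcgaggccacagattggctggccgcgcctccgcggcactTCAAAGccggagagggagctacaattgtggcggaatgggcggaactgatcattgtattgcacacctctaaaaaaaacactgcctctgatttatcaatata
The Sp5 sequence held 2 copies of CTTTGA, which begin at positions -204 and -104 from the start site. That motif occurred in 16% of 32851 mouse promoters of this length. The printed Sp8 sequence held 1 copy, at -50, and the sequences at its other starts held none. TTTATT occurred 2 times in the Evx1 sequence, at -229 and -224, and in 19.63% of all promoters. The Evx1 sequence held no CTTTGA. At the Sp8 starts not printed, 1 sequence held TTTATG at -194 and 1 held TTTATT at -175. TTTATG occurred in 11.85% of all promoters. CG dinucleotides numbered 6 in Sp5, 12 in Evx1 and 32 in the printed Sp8 sequence, against a median of 7. The sequences at the other Sp8 starts held 2 and 10. These matches describe letters only, and no binding was measured.

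In the GENCODE M21 models on mm10, the genes are protein coding. Sp5 lies at chr2:70474923-70477729, Sp8 at chr12:118846329-118852576, Evx1 at chr6:52313498-52318378 and Cdx4 at chrX:103321398-103330592, all on the + strand. On the - strand are Gbx2 at chr1:89927956-89931179, Cdx2 at chr5:147300805-147307270, Nkx1-2 at chr7:132594878-132599637, Fgf17 at chr14:70636203-70642268 and Fgf8 at chr19:45736798-45742915.

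Library depth ran from 8581282 to 38240227 counts, so that 3 counts in a library correspond to between 0.0748 and 0.370 CPM, the count scaled to library size. Agreement with the best-matching library of the same group fell below a Pearson r of 0.95 in 2 libraries: NT day 11 replicate 3 (0.939) and Eed day 11 replicate 3 (0.945). In the former, 82 genes with a mean above 50 counts over all libraries were at 0. Ribosomal RNA still counted under Rn45s differed by day. In NT it made up 14.1% to 14.7% of a library at day 7, 5.95% to 6.89% at day 9 and 5.18% to 6.79% at day 11. Nr6a1 libraries of day 7 had 10.4% and 6.71%. The part of this difference in the comparisons was not tested. RNA of the targeted gene was not lowered past the threshold in any of 12 comparisons with NT. Its log2 change ran from -0.51 to 0.37, and the 1 change that passed was an increase of Ezh2 under its own guides at day 11. Small insertions and deletions need not lower RNA, so this neither checks nor contradicts the labels.

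NT cells expressed progenitor markers of their label, beside neuronal markers. Mean Sox2, Nes and Olig2, markers of (ventral) neural progenitors, were 142, 545 and 281 CPM in NT at day 7 and 200.0, 534 and 249 CPM at day 11. All 8 progenitor markers listed summed to 1339 to 1372 CPM in NT at day 7 and 1224 to 1310 CPM at day 11. The 6 neuronal markers listed summed to 2788 to 2898 CPM and 3169 to 3371 CPM. The 17 listed genes of neuromesodermal progenitors and presomitic mesoderm summed to 166 to 179 CPM in NT at day 7 and 239 to 286 CPM at day 11. Tail bud identity was still not borne out by the defining markers Msgn1, Mixl1 and T among them. Msgn1 and Mixl1, of presomitic mesoderm and primitive streak, were at 0 in all 9 NT libraries. The mean of T (Brachyury) in NT was 0.287 CPM at day 7, 0.131 at day 9 and 0.0928 at day 11. In targeted groups, Msgn1 had 7 counts, all in Ezh2 at day 7. Mixl1 had 9 counts there, 5 in Eed at day 7 and 8 in Eed at day 11. The highest group mean of T was 0.592 CPM, in Eed at day 7. The 10 genes are therefore described as genes with known tail bud roles, not as a tail bud state.

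Per kilobase of exon, the median level over the 41 libraries was 18.0 CPM per kb for Sp8, 9.96 for Gbx2, 2.45 for Evx1, 1.02 for Nkx1-2 and 0.559 for Fgf17. It was 0.254 for Sp5, 0.0685 for Cdx1 and 0.0325 for Fgf8, and 0 for Cdx2 and Cdx4. Sp8, Gbx2, Evx1 and Nkx1-2 had counts in all 41 libraries. The other genes were at 0 in some: Fgf17 in 3, Sp5 in 5, Cdx1 in 16, Fgf8 in 20, Cdx2 in 21 and Cdx4 in 40. The plot of every library shows 4 genes with counts in every library and 6 within a few CPM of 0.

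**Figure D1:**
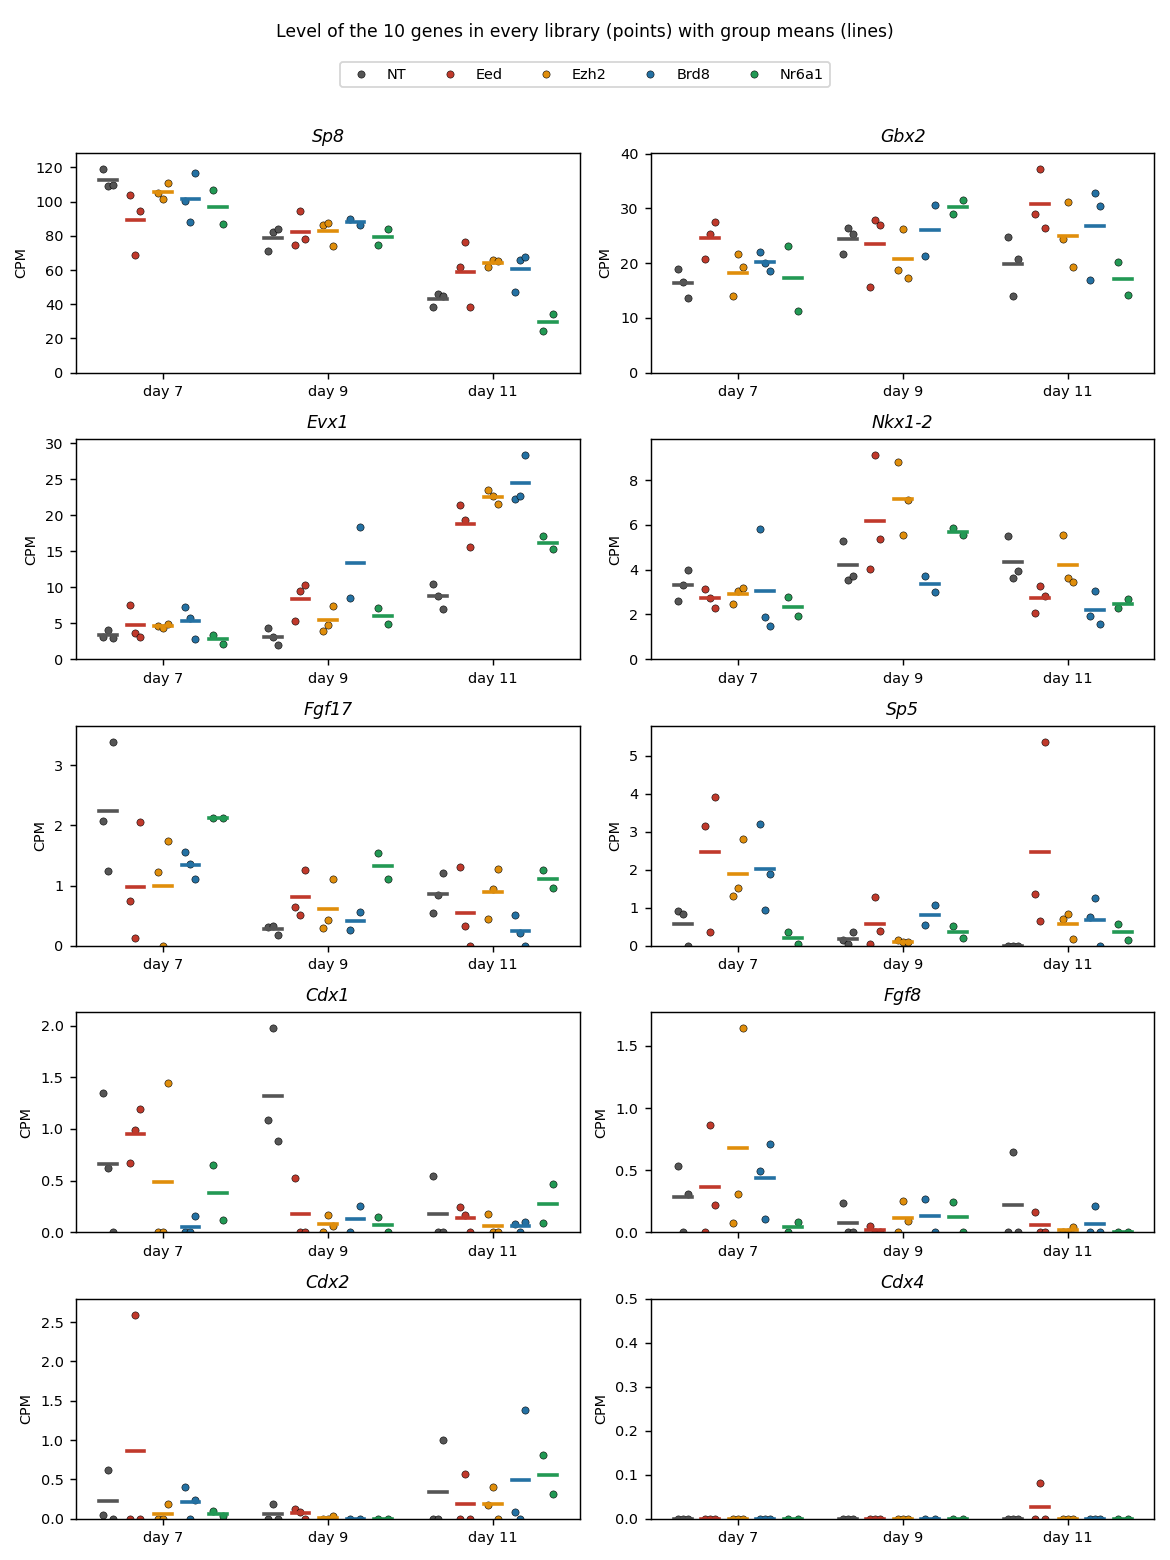
CPM (y axis, each with its own scale from 0) of the 10 genes in each library, by day (x axis) and guide (colour). Points are libraries and lines are group means. Sp8 falls with time, Evx1 is highest at day 11, and Cdx4 has 1 count in 1 library.

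The comparisons are of each targeted group with NT of the same day, of NT days with each other, of Eed with Ezh2, and of the effect at day 11 with that at day 7. All are edgeR quasi-likelihood tests with Benjamini-Hochberg adjustment over the genes tested in the comparison, two-sided, and "called" means an adjusted p below 0.05. Comparisons at 1 day share the NT libraries of that day. Nothing in the labels says that libraries of a group came from separate cultures, so the p-values measure the spread between libraries. In these bulk samples, more cells of a type and more RNA per cell cannot be told apart.

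Between day 7 and day 11 in NT, 3 of the 9 tested genes changed, beside 45.2% of all tested genes: 1 rose, beside 21.9%, and 2 fell, beside 23.3%. From day 7 to day 9, 2 of 9 changed, beside 27.9%, and both fell, beside 13.3%. Sp8, a zinc-finger factor of the Sp family, read 119, 109 and 110 CPM at day 7, then 71.1, 82.0 and 83.8 CPM at day 9 and 38.3, 46.3 and 44.8 CPM at day 11. The 3 days did not overlap. Sp8 fell by 1.39 ± 0.17 (log2 ± SE, adjusted p = 5.69e-09) from day 7 to 11. Its fall by 0.51 ± 0.16 to day 9 (adjusted p = 0.0135) was not called without NT day 7 replicate 1 (0.0568) or without NT day 9 replicate 1 (0.0738).

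Evx1 moved the other way. Its level was 3.14, 4.06 and 2.98 CPM at day 7, 4.36, 3.07 and 1.95 CPM at day 9, and 10.5, 8.72 and 7.04 CPM at day 11. Days 7 and 9 overlapped, and every day 11 library was above both. The rise from day 7 to 11 was 1.38 ± 0.34 (log2, adjusted p = 0.00106).

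Sp5, a direct target of Wnt signalling, had 0.918, 0.833 and 0 CPM in NT at day 7. It had 0.156, 0.0459 and 0.355 CPM at day 9 and no count in any of the 3 libraries at day 11. Pooled counts over pooled library size gave 0.674 CPM at day 7. That level was 7.56 times the limit of 3 counts over the pooled day 11 group, with 1 day 7 library also at 0. The edgeR test of the fall gave an adjusted p of 0.0104. The bound allows for no error in the day 7 level. The bound was 4.64-fold without day 7 replicate 1 and 4.66-fold without day 11 replicate 1. The 10 Wnt feedback targets, which such signalling induces, included 3 that fell, beside 23.3% of all tested genes, and none that rose over the same days; Ccnd1, a cell cycle gene, fell by 2.41 ± 0.21 on the log2 scale. Their median change was -0.24, beside 0.00 over all tested genes.

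Fgf17 was 2.08, 1.25 and 3.39 CPM at day 7, 0.312, 0.321 and 0.177 CPM at day 9 and 0.542, 0.835 and 1.21 CPM at day 11. All day 7 libraries were above all later ones. It fell by 2.99 ± 1.01 (log2) to day 9 (adjusted p = 0.0234), and the change to day 11 was -1.38 ± 0.94 (adjusted p = 0.241). The day 9 call was lost without day 7 replicate 3 (0.0815) and without day 9 replicate 1 (0.0605), 2 (0.0584) or 3 (0.0865). Among 15 FGF receptors and feedback targets, 9 fell and 2 rose from day 7 to 11, beside 23.3% and 21.9% of all tested genes. Dusp6, a feedback phosphatase, fell by 1.10 ± 0.15 and Etv1, an ETS factor, rose by 2.06 ± 0.15 (log2).

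Gbx2, Nkx1-2, Cdx1, Cdx2 and Fgf8 were not called in NT between days. Gbx2 read 18.9, 16.6 and 13.5 CPM at day 7, 21.6, 26.4 and 25.3 CPM at day 9 and 24.8, 13.9 and 20.8 CPM at day 11. Day 9 lay above day 7, with a log2 difference of 0.57 ± 0.26 and an adjusted p of 0.0971. That difference was called when days 7 and 9 of NT were fitted alone (0.00548) and when genes of low counts were kept (0.0110). Of the 15 trunk Hox genes, textbook targets of Cdx factors, 9 rose, beside 21.9% of all tested genes, and none fell between days 7 and 11 (median log2 change 1.10). Hoxa5 rose from a mean of 74.5 to 259 CPM. Mean Cdx1, not called between days, was 0.659 CPM at day 7, 1.32 CPM at day 9 and 0.181 CPM at day 11. For Cdx1, 1 library was at 0 at day 7 and 2 at day 11.

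At day 7, no member was called under any of the 4 sets of guides by edgeR or by DESeq2. The share of all tested genes called by edgeR was 8.66% for Eed, 0.151% for Ezh2, 4.75% for Brd8 and 0.145% for Nr6a1. At an unadjusted p under 0.05 there were 2 of 9 for Eed and 0 for Ezh2, Brd8 and Nr6a1. The 2 were Sp8, with 104, 68.8 and 94.7 CPM (log2 difference -0.33 ± 0.16, adjusted p = 0.217), and Gbx2, with 20.8, 25.3 and 27.5 CPM (0.57 ± 0.26, adjusted p = 0.189). Neither overlapped NT.

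At day 9, Evx1 was the only member called: 1 of 9 for Eed, beside 5.14% of all tested genes called and 2.99% called higher, and 1 of 9 for Brd8, beside 15.5% and 7.72%. Evx1 encodes the homeobox factor that sets V0 interneuron identity. Its level under Brd8 guides was 8.44 and 18.3 CPM, above the NT maximum of 4.36 CPM in both libraries, and the difference was 2.10 ± 0.36 (log2, adjusted p = 8.23e-05). Without Brd8 replicate 2, the higher library, the difference was 1.42 (adjusted p = 0.0432) and still called. Eed libraries had 5.36, 9.44 and 10.4 CPM, also all above NT, with a difference of 1.40 ± 0.34 (adjusted p = 0.0121). The Eed call was lost without Eed replicate 2 (0.0637) or 3 (0.132), without NT replicate 3 (0.115) and when the 2 groups were fitted alone (0.0614).

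Markers of other cell types also moved at day 9. Of 6 neural crest markers, 4 rose for Brd8 and 3 for Eed, and their summed level was 243 to 315 CPM in Brd8 and 86.2 to 227 in Eed, beside 57.0 to 76.3 in NT. Of 9 paraxial mesoderm markers, 4 rose for Brd8 and 1 for Eed, with sums of 44.5 to 49.5 CPM, 21.8 to 39.5 CPM and, in NT, 15.3 to 17.8 CPM. None of either list fell. Of 6 neuronal markers, 4 fell for Brd8 and 1 for Eed and none rose; their sums were 2472 to 2943 CPM, 2763 to 3487 CPM and, in NT, 3588 to 4216 CPM. The share of all tested genes that fell was 7.81% for Brd8 and 2.16% for Eed. In the V0 and dorsal interneuron list, where Evx1 belongs by its later role, 8 of 11 genes rose for Brd8 and 3 for Eed at day 9. The part of these shifts in the day 9 Evx1 values was not tested.

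Ezh2 and Nr6a1 had 0 of 9 called at day 9 by edgeR and by DESeq2, beside 0% and 0.151% of all tested genes, and 2 each at an unadjusted p under 0.05. Evx1 read 3.96, 4.76 and 7.42 CPM under Ezh2 guides (log2 difference 0.80 ± 0.34, adjusted p = 1) and 7.05 and 4.93 CPM under Nr6a1 guides (0.94 ± 0.37, adjusted p = 0.545). The Ezh2 libraries overlapped NT and the Nr6a1 libraries did not. Cdx1, a homeobox factor of the posterior axis, was the other Ezh2 gene at an unadjusted p under 0.05. Its level at day 9 was 1.09, 1.97 and 0.887 CPM in NT, 0.523, 0 and 0 for Eed, 0, 0.170 and 0.0616 for Ezh2, 0 and 0.255 for Brd8, and 0.145 and 0 for Nr6a1. All 10 targeted libraries were below all 3 NT libraries, with adjusted p-values of 0.344, 1, 0.266 and 0.703 in that order. NT at day 7 itself ranged from 0 to 1.35 CPM for this gene.

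At day 11, Eed guides gave 3 called members of 9, beside 24% of all tested genes, Ezh2 guides 2, beside 7.91%, and Brd8 guides 3, beside 17.8%. All of these members rose, as did 13.3%, 5.22% and 10.3% of all tested genes, while 10.6%, 2.7% and 7.48% of them fell. These shares, in the order Eed, Ezh2 and Brd8, are the background of each list counted at day 11. The calls lay on the same 3 genes: Evx1 and Sp8 in all 3 comparisons, Sp5 in those of Eed and Brd8. Nr6a1 guides gave 0 of 9 by edgeR and by DESeq2, beside 0.0789%, with 3 at an unadjusted p under 0.05. The median log2 change over the 9 genes was -0.32 for Eed, 0.07 for Ezh2, 0.43 for Brd8 and 0.37 for Nr6a1, while the median over all tested genes lay between 0.02 and 0.03.

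Evx1 reached 21.5, 19.3 and 15.5 CPM with Eed guides, 23.5, 22.7 and 21.5 with Ezh2 guides, 22.3, 22.7 and 28.3 with Brd8 guides, and 17.1 and 15.2 with Nr6a1 guides. Every targeted library exceeded the NT maximum of 10.5 CPM. Log2 differences from NT were 1.10 ± 0.32 for Eed (adjusted p = 0.00914), 1.36 ± 0.32 for Ezh2 (0.00427) and 1.48 ± 0.32 for Brd8 (0.000831). For Nr6a1 the difference was 0.89 ± 0.34 with an adjusted p of 0.438, so it was not called although the groups did not overlap. Leaving out NT replicate 3, 1 of the low-agreement libraries, took the Eed call to an adjusted p of 0.0529, and leaving out both such libraries to 0.0506. The Ezh2 and Brd8 calls held in all 12 alternatives run.

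Guides to the PRC2 subunits Eed and Ezh2 were also set against each other, without NT. No member was called between Eed and Ezh2 by edgeR or DESeq2 at day 7, 9 or 11, beside 0.151%, 0% and 2.88% of all tested genes, and none had an unadjusted p under 0.05. At day 11 the log2 difference of Eed from Ezh2 was -0.26 for Evx1 (95% interval -0.88 to 0.36), -0.12 for Sp8 (-0.45 to 0.20) and 2.08 for Sp5 (-0.18 to 4.34). These intervals leave room for differences of more than 1 log2 unit for Sp5.

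Sp8 at day 11 was 61.8, 76.2 and 38.2 CPM with Eed guides, 61.9, 65.6 and 65.1 with Ezh2 guides and 47.3, 66.1 and 67.8 with Brd8 guides. NT had 38.3 to 46.3 CPM, so Ezh2 and Brd8 libraries were all above NT, and Eed replicate 3, a low-agreement library, was below it. The log2 increases were 0.46 ± 0.17 (adjusted p = 0.0401), 0.58 ± 0.16 (0.0215) and 0.49 ± 0.17 (0.0354). The highest of these levels, 76.2 CPM, was below the 109 CPM of the lowest NT library of day 7. Nr6a1 libraries, at 24.6 and 34.5 CPM, were both under the NT range, with a log2 difference of -0.54 ± 0.19 and an adjusted p of 0.328.

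The Sp8 calls at day 11 depended on single libraries. Without NT replicate 1 the adjusted p was 0.153 for Eed, 0.100 for Ezh2 and 0.142 for Brd8, and without NT replicate 3 it was 0.0708, 0.0563 and 0.0666. The Eed call was also lost without Eed replicate 1 (0.113) or 2 (0.356), the Ezh2 call without Ezh2 replicate 2 (0.0661) or 3 (0.0630), and the Brd8 call without Brd8 replicate 2 (0.131) or 3 (0.149). Without Eed replicate 2 the increase was 0.24 in place of 0.46. Fitting only the groups compared gave 0.171 for Eed and 0.0595 for Brd8.

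Whether the effect differed between days 7 and 11 was tested directly. Sp8 was the 1 member of 9 called for Eed, beside 6.32% of all tested genes called and 4.01% called higher: the Eed effect was 0.79 ± 0.23 higher at day 11 (log2, adjusted p = 0.0299). By edgeR and DESeq2 0 of 9 were called for Ezh2 (beside 1.41%), Brd8 (4.55%) and Nr6a1 (0.112%), with 1, 1 and 2 at an unadjusted p under 0.05. The corresponding Sp8 values were 0.67 for Ezh2 (adjusted p = 0.148), 0.63 for Brd8 (0.120) and -0.32 for Nr6a1 (0.865). For Evx1 the differences of effect ran from 0.58 for Eed to 1.20 for Nr6a1, none called.

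**Figure D2:**
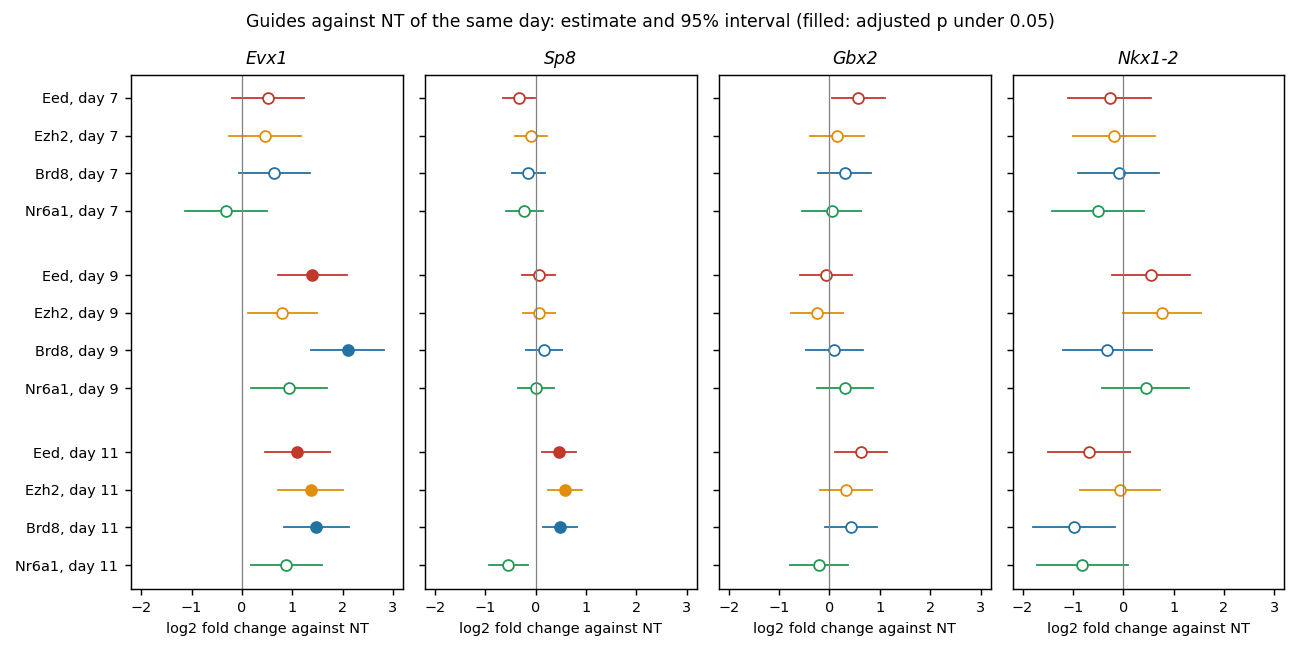
Log2 fold change (x axis) of Evx1, Sp8, Gbx2 and Nkx1-2 in the 12 comparisons with NT of the same day, with 95% intervals. Filled points had an adjusted p below 0.05: 5 for Evx1 at days 9 and 11, and 3 for Sp8 at day 11.

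Sp5 had no count in the 3 NT libraries at day 11, where the limit of 3 counts over the group corresponds to 0.0892 CPM. Eed libraries had 1.35, 0.656 and 5.36 CPM, Ezh2 libraries 0.702, 0.844 and 0.176, Brd8 libraries 0.760, 1.25 and 0, and Nr6a1 libraries 0.582 and 0.155. Thus 10 of the 11 targeted libraries had counts and no NT library did. The counts of each targeted group were pooled over its pooled library size. Sp5 then stood at 22.0 times the NT limit for Eed (adjusted p = 0.00134) and 8.32 times for Brd8 (0.0207). It stood at 5.99 times for Ezh2 (0.0507) and 3.96 times for Nr6a1 (0.436), neither of them called. These bounds allow for no error in the level of the targeted group. The adjusted p-values are those of the edgeR test of Sp5, not of the bounds. The largest value, 5.36 CPM, was in Eed replicate 3, a low-agreement library, and without it the Eed bound was 12.5-fold. Leaving out NT replicate 1 lowered the bounds to 13.6-fold for Eed, 5.12-fold for Brd8, 3.69-fold for Ezh2 and 2.44-fold for Nr6a1. The Brd8 bound was 4.59-fold without Brd8 replicate 2 and the Ezh2 bound 3.94-fold without Ezh2 replicate 2. For Nr6a1 it was 1.73-fold without replicate 1 and 6.53-fold without replicate 3.

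The Eed call for Sp5 held in all 11 alternatives that gave a value. That for Brd8 was lost without Brd8 replicate 2 (adjusted p = 0.0745), without NT replicate 1 (0.0649), 2 (0.0558) or 3 (0.0655), and without the low-agreement libraries (0.0576). The Ezh2 value passed with DESeq2 (0.0166), with no low-count filter (0.0155) and without Ezh2 replicate 3 (0.0492). At day 7, Sp5 was 3.15, 0.370 and 3.91 CPM for Eed, 1.30, 1.53 and 2.80 for Ezh2 and 3.19, 0.945 and 1.90 for Brd8, beside 0.918, 0.833 and 0 in NT, with adjusted p-values of 0.301, 0.620 and 0.427.

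The Wnt feedback targets at day 11 included 7 of 10 that rose for Eed, 1 for Ezh2, 5 for Brd8 and 0 for Nr6a1, and none that fell, beside 13.3%, 5.22%, 10.3% and, in either direction, 0.0789% of all tested genes. Median log2 changes were 1.09, 0.47, 0.64 and 0.18. Ccnd1 rose by 2.59 ± 0.21 for Eed, 2.09 ± 0.21 for Ezh2 and 2.66 ± 0.21 for Brd8 (log2). Axin2, a scaffold of the β-catenin destruction complex, rose by 0.70 ± 0.20 for Eed and 0.88 ± 0.20 for Brd8, and its value for Ezh2 was 0.47 with an adjusted p of 0.148. Sp6, a paralog of Sp5 and Sp8, rose for Eed alone among the 4 day 11 comparisons with NT (4.07 ± 0.73, adjusted p = 5.72e-05). Set against Ezh2 directly, Sp6 was higher in Eed by 2.67 ± 0.66 (adjusted p = 0.0203), and its difference between Eed and Brd8 was not tested.

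Markers of trophectoderm and surface epithelium moved with the Eed values of Sp5 and Sp6: their summed level was 228 to 376 CPM in Eed libraries at day 11 and 67.4 to 94.97 CPM in NT, and 5 of 11 rose and 1 fell. Cdh1 (E-cadherin) rose by 3.80 ± 0.52 and Epcam by 4.61 ± 0.79 (log2). In Brd8 libraries the same sum was 57.6 to 88.2 CPM, and 0 of 11 were called. The part of these cells in the Sp5 values was not tested.

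Fgf8 and Fgf17 gave no call against NT. Fgf17, which with Fgf8 signals in the tail bud and at the boundary of midbrain and hindbrain, was 1.31, 0.328 and 0 CPM for Eed at day 11, 0.439, 0.944 and 1.27 for Ezh2, 0.507, 0.208 and 0 for Brd8 and 1.25 and 0.967 for Nr6a1. All 3 Brd8 libraries lay below the NT range of 0.542 to 1.21 CPM, as did Eed replicates 2 and 3 and Ezh2 replicate 1. For Brd8 this came with a log2 difference of -1.78 ± 1.04 and an adjusted p of 0.259. At day 9, Nr6a1 libraries, at 1.55 and 1.11 CPM, were above the 0.177 to 0.321 CPM of NT (2.24 ± 1.06, adjusted p = 0.674). Fgf8 did not exceed 1.64 CPM in any library and had 96 counts in all 41 together.

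Of 13 tested genes of neuromesodermal progenitors and presomitic mesoderm, 2 rose and 2 fell at day 11 for Eed, 1 and 1 for Ezh2, 3 and 1 for Brd8, and none for Nr6a1. The 4, 2 and 4 of 13 called stand beside 24%, 7.91% and 17.8% of all tested genes called. Of 9 paraxial mesoderm markers and 6 of the 9 listed endoderm markers, none was called in these 4 comparisons. The sum of the 9 endoderm markers was 20.1 to 37.6 CPM in Eed and 15.4 to 20.1 in Nr6a1, above the 11.9 to 15.3 CPM of NT. Sums of 8.26 to 18.0 CPM in Ezh2 and 5.48 to 23.6 CPM in Brd8 overlapped NT. Fgf15, a ligand of another FGF subfamily in the first of these lists, rose at day 11 by 3.48 ± 0.56 for Eed, 3.39 ± 0.56 for Ezh2 and 3.89 ± 0.56 for Brd8 (log2). Of the 15 FGF receptors and feedback targets, 3 rose and 3 fell for Eed, 1 and 3 for Ezh2, 2 and 3 for Brd8, and none either way for Nr6a1. Etv1 fell by 1.71 ± 0.15, 1.03 ± 0.14 and 1.49 ± 0.15 (log2). Dusp6 rose by 0.69 ± 0.15 for Eed and 0.61 ± 0.15 for Brd8, and its value for Ezh2 was 0.09. The FGF list thus moved in both directions, and its medians lay between -0.15 and -0.04.

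Gbx2 read 28.9, 37.2 and 26.4 CPM for Eed at day 11, 24.5, 31.2 and 19.4 for Ezh2, 16.9, 32.9 and 30.4 for Brd8 and 20.2 and 14.1 for Nr6a1. The Eed libraries were all above the NT libraries (13.9 to 24.8 CPM), and the other groups overlapped them. The log2 difference for Eed was 0.63 ± 0.26 with an adjusted p of 0.0683, which went to 0.0382 without NT replicate 1 and to 0.00542 with no low-count filter. Of the 9 boundary genes of midbrain and hindbrain, where Gbx2 acts, 4 rose and none fell for Eed, and likewise for Ezh2 and Brd8. Pax2 and Lmx1b of this list are also in the V0 and dorsal interneuron list, so the counts of these lists are not separate. En1 rose by 1.39 ± 0.37, 1.35 ± 0.37 and 1.71 ± 0.38 (log2). The annotated model of Gbx2 overlaps an antisense transcript over 946 bases, and whether counting used strand is not given in the sources used here.

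Nkx1-2, a homeobox gene of the preneural tube, was 2.08, 3.28 and 2.84 CPM for Eed at day 11, 5.53, 3.63 and 3.43 for Ezh2, 1.94, 3.05 and 1.58 for Brd8, and 2.28 and 2.67 for Nr6a1. Eed, Brd8 and Nr6a1 libraries lay below the NT range of 3.62 to 5.50 CPM and Ezh2 libraries overlapped it. The lowest adjusted p was 0.0919, for Brd8, with a log2 difference of -0.98 ± 0.40. The whole of Nkx1-2 lies within the model of Fgfr2 on the same strand, so reads from Fgfr2 could be counted in it.

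Cdx2 was tested and not called in any comparison, and Cdx4 was not tested. Cdx2 had 119 counts in 20 libraries, with a highest level of 2.59 CPM in 1 Eed library of day 7 whose partners were at 0. In 8 of the 15 groups, a library of Cdx2 with 5 or more counts stood beside one with 0. The same held in 6 groups for Cdx1, 4 for Fgf8, 3 for Fgf17 and 2 for Sp5. For Sp5 these were NT at day 7 (19, 8 and 0 counts) and Brd8 at day 11 (9, 18 and 0 counts). The limit of 3 counts used for Sp5 covers counting error and not such differences between libraries. Cdx4 had 1 count, in Eed day 11 replicate 2. Among the trunk Hox genes at day 11, 7 of 15 rose for Eed, 5 for Ezh2 and 8 for Brd8, with 2 falling for Brd8; Hoxb9 rose by 2.03 ± 0.30, 2.16 ± 0.30 and 2.87 ± 0.30 (log2).

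Evx1 was read beside other genes of the V0 and dorsal interneurons, since that is its later role. At day 11, 8 of 11 rose for Eed, 7 for Ezh2, 8 for Brd8 and 0 for Nr6a1, and none fell. Medians were 1.83, 1.76, 2.21 and 0.46. Dbx1, the homeobox gene of the progenitors that make V0 neurons, had a mean of 9.72 ± 7.41 CPM in NT (SD, n = 3), 78.4 ± 9.93 in Eed, 59.6 ± 16.9 in Ezh2 and 83.7 ± 13.0 in Brd8. Pax3, of dorsal progenitors, rose by 5.67 ± 0.66 for Eed, 4.82 ± 0.66 for Ezh2 and 5.31 ± 0.66 for Brd8. The summed level of the list was 102 to 109 CPM in NT, 344 to 363 in Eed, 305 to 336 in Ezh2, 360 to 410 in Brd8 and 155 to 164 in Nr6a1.

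**Figure D3:**
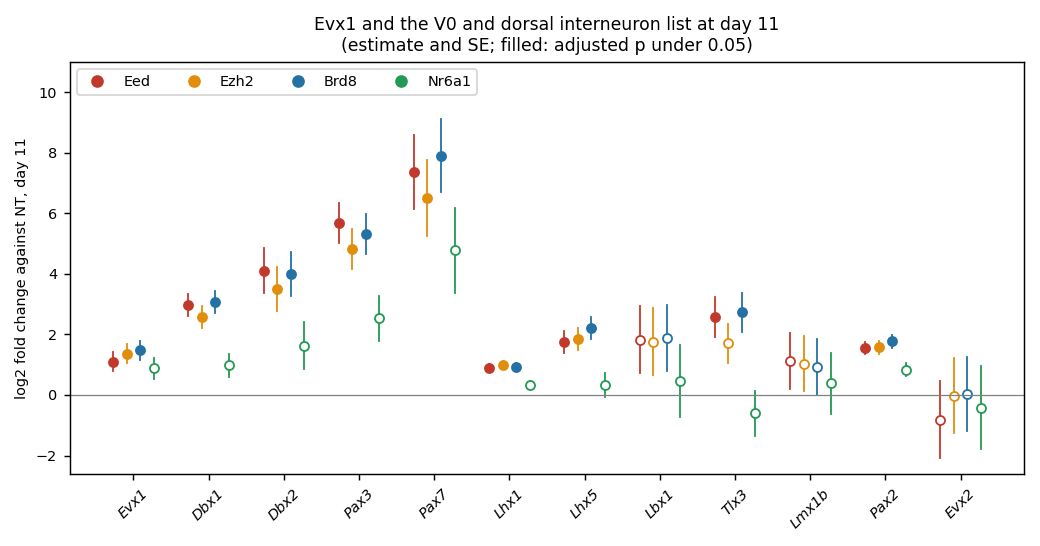
Log2 fold change against NT at day 11 (y axis, with SE) of Evx1 and the 11 genes of the V0 and dorsal interneuron list, by guide (colour). Filled points had an adjusted p below 0.05. Pax7 had 1 count in NT, so its fitted values are very uncertain. No Nr6a1 point is filled.

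Other cell types moved beside Evx1 at day 11. Of 6 neural crest markers, 4 rose and 1 fell for Eed, 3 rose and 1 fell for Ezh2, and 3 rose for Brd8, where 13.3%, 5.22% and 10.3% of all tested genes rose. Their sum was 306 to 338 CPM in Eed, 167 to 303 in Ezh2 and 342 to 453 in Brd8, beside 156 to 186 in NT. Of 8 spinal progenitor markers, 2 rose and 4 fell in each of these comparisons. Their sum was 784 to 861 CPM in Eed, 946 to 1105 in Ezh2, 768 to 880 in Brd8 and 1126 to 1144 in Nr6a1. All of these lay below the 1224 to 1310 CPM of NT. The 6 neuronal markers had a sum of 2871 to 2960 CPM in Eed, 3382 to 3606 in Ezh2, 3042 to 3424 in Brd8 and 3169 to 3371 in NT, so Eed lay below NT, Ezh2 above it and Brd8 overlapped it. The part of these shifts in the day 11 Evx1 values was not tested.

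Evx1 overlaps an antisense RNA, listed as 5730457N03Rik, over 1335 bases. This RNA made up 14.7% to 59.4% of the joint count of the pair in a library, and its group means followed those of Evx1 with an r of 0.963 over 15 groups. It rose for Eed at day 9 (1.93 ± 0.51, adjusted p = 0.0226) and for Brd8 at days 9 (2.63 ± 0.55, 0.000738) and 11 (1.45 ± 0.47, 0.0262). At day 11 it was not called for Eed (1.05 ± 0.47, 0.100) or Ezh2 (1.41 ± 0.47, 0.0547). In NT it rose by 2.00 ± 0.52 from day 7 to 11 (adjusted p = 0.00165). The library kit keeps strand, but without knowing whether counting used it, reads of the pair cannot be told apart.

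**Figure D4:**
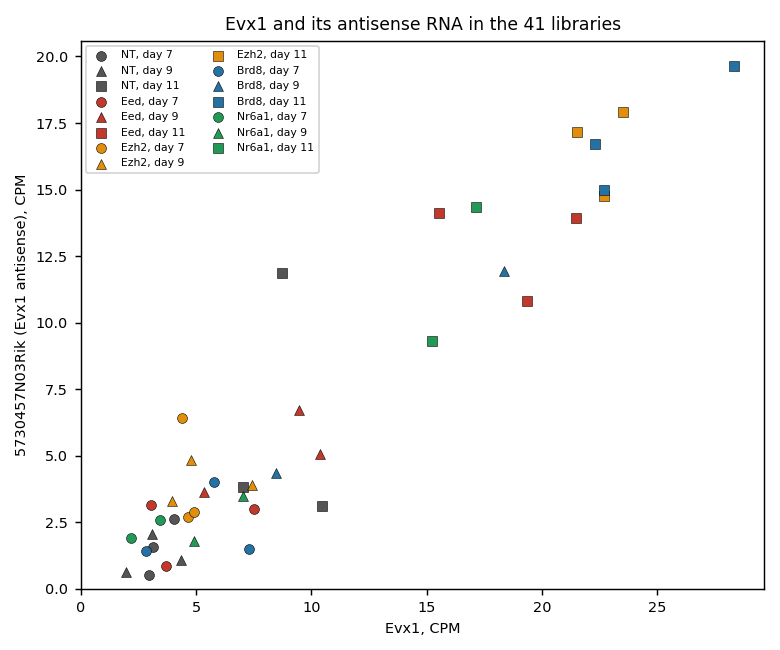
CPM of Evx1 (x axis) and of its antisense RNA 5730457N03Rik (y axis) in the 41 libraries, by guide (colour) and day (shape). Day 11 libraries of the targeted groups lie towards the upper right, with Evx1 above its highest day 11 level in NT, and the correlation of group means is 0.963.

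By pattern over the 15 group means of log2 CPM, the genes most like Evx1 were Bhlhe22 (Pearson r 0.976), 5730457N03Rik and Sertad4 (0.957). For Sp8 they were Esyt1 (0.972), Isl2 (0.971) and Epb4.1l4a (0.971), and for Sp5 Pqlc3 (0.927), Ppp1r13l (0.897) and Sp6 (0.893). Gbx2 was most like Wdr19 (0.845) and Nkx1-2 most like Cpne5 (0.818). These are the highest of many genes over groups that share libraries and days, and are given as a description.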

How the data were processed

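RNA was measured in 41 libraries of mouse cells, in 15 groups of genotype and day taken from the labels. The authors deposited estimated counts per gene, 2.95% of them with a fraction (none among the 10 genes described), and these were rounded to whole numbers. The genome build mm10 and DESeq2 are named, with no role given, in the submitters' processing notes; no source used here names the aligner, the counting tool, the annotation or the use of strand. Genes were kept with filterByExpr by group, scaled by TMM and fitted with edgeR 4.0.16 (R 4.3.3) as 1 mean per group, and CPM are counts over effective library size. DESeq2 1.42.0 was an alternative. Library sizes are sums over the 15204 tested genes. Steps were checked on simulated data for Eed against NT at day 11 only. Changes were planted in genes of higher counts than Sp5, so the check does not cover calls at such low counts.

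The 10 genes and all lists were chosen with earlier results of these data known. All 10 are described; of each list, the counts called and up to 3 genes of smallest adjusted p per comparison were eligible to be named, and other named genes were chosen after their values were seen. Likeness names the 3 tested genes with the highest r. Gene models are those of GENCODE M21, on mm10. RefSeq promoters (GRCm38.p6) matched 7 of the 10 genes. Replicate numbers were not used to pair libraries: in no comparison was every same-number correlation of deviations over 0.1. Groups this small cannot exclude pairing by that rule. For Brd8 against NT at day 7, all 3 Brd8 libraries correlated best with their own number (0.00495 to 0.0147). So did all 3 Eed libraries against Ezh2 at day 7 (0.0117 to 0.0497). Intervals are at 95%. Depth and the limit of 3 counts cover counting error only.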

Additional observations from a re-analysis of the deposited data

Results flagged for a closer look

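Sp8 under Eed guides differed between days by a direct test: the effect against NT was 0.79 ± 0.23 (log2) higher at day 11 than at day 7, with an adjusted p of 0.0299 in edgeR's quasi-likelihood test. The Eed mean was 89.1 CPM beside 113 CPM in NT at day 7 and 58.7 CPM beside 43.1 CPM at day 11. The call was lost without Eed day 11 replicate 1 (adjusted p = 0.0599) or 2 (0.153), Eed day 7 replicate 2 (0.114), NT day 7 replicate 1 (0.0729) or NT day 11 replicate 1 (0.0810).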

How the results depend on the processing

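In all, 24 gene and comparison results were run again under those of 47 settings that bear on them, 41 of which leave out 1 library. Each result had 10 to 18 settings, and none reversed. With no low-count filter, the number of the 9 genes called was 2 for Eed at day 7, 1 for Nr6a1 at day 11, and 1 each for the Ezh2 and Brd8 effects at day 11 against day 7. With only the groups compared in the fit it was 1 for Eed at day 7, 0 for Eed at day 9, 1 for Eed and 1 for Brd8 at day 11, 0 for the Eed effect and 1 for the Ezh2 effect; Sp5 was then filtered out at day 11. Leaving out each library in turn gave 0 to 1 for Eed at day 9, 1 to 3 for Eed, 1 to 2 for Ezh2 and 1 to 3 for Brd8 at day 11, 0 to 2 for NT day 9 against 7, 0 to 1 for the Eed effect and 0 to 1 for the Brd8 effect, and did not change the other counts. The replicate block, with pairing neither established nor excluded, left 3 called for Eed at day 11, and no count of members moved. Leaving out both low-agreement libraries was chosen after seeing the data.

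Calls over all genes, which set the shares printed, moved by more than 1.5 times in places: 782 for Eed at day 9 became 394 with only its groups and 86 to 1399 on leaving out a library, and 3645 for Eed at day 11 became 2249 with only its groups and 2268 without the low-agreement libraries. The counts were 23 for Ezh2 at day 7 (448 with only its groups, 0 without Ezh2 replicate 2), 1203 for Ezh2 at day 11 (784 without the low-agreement libraries), 722 for Brd8 at day 7 (1192 with only its groups, 233 without Brd8 replicate 1) and 2360 for Brd8 at day 9 (845 without replicate 2). For Nr6a1 they were 22, 23 and 12 at days 7, 9 and 11, against 278, 254 and 228 with no filter. Between Eed and Ezh2, 23 at day 7 became 353 with no filter and 0 to 112 on leaving out a library. The 0 of day 9 became 454 with no filter, 152 with DESeq2 and 451 without Eed replicate 1. The 438 of day 11 became 951 with no filter, 126 without the low-agreement libraries, 95 without Ezh2 replicate 3 and 99 without Eed replicate 3. Depth limits Cdx1, Cdx2, Cdx4 and Fgf8 most.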

Other observations

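Among the paralogs of the 10 genes, Sp9 rose in NT from a mean of 1.49 CPM at day 7 to 8.34 CPM at day 11 (2.45 ± 0.48 on the log2 scale, adjusted p = 5.83e-05 by edgeR), while Sp8 fell over the same days. Fgf18, which is closely related to Fgf8 and Fgf17, had a mean of 4.60 CPM at day 7 and 0.823 CPM at day 11, and fell by 2.48 ± 0.55 (adjusted p = 0.000247). Over these days 6 of the 10 tested paralogs fell and 1 rose, beside 23.3% and 21.9% of all tested genes.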
